A study of Mus musculus with 23 samples.

Results

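The response to BMP4 in cells that lack Wnt3 was examined in mouse epiblast-like cells, a cultured counterpart of the epiblast before gastrulation. Its members are the 6 of 23 arrays titled for Wnt3-/- cells with BMP4 or with no cytokine. The 3 KO BMP4 arrays are Wnt3-/- cells given BMP4 at 500 ng/ml, and the 3 KO untreated arrays are Wnt3-/- cells given none, at 12, 24 and 36 h of culture as floating aggregates. For comparison, 6 arrays hold Wnt3+/+ cells with BMP4 at the same dose (WT BMP4) and without cytokine (WT untreated) at the same times, and 1 array of each line was taken at 0 h, before aggregation. Both lines are male, on a C57BL/6 background, and carry a transgene in which Blimp1 regulatory elements drive a membrane-bound Venus protein. The embryonic stem cells were kept in 2i with LIF and were turned into epiblast-like cells with activin A, basic FGF and serum replacement on fibronectin. All aggregates, untreated ones included, were then grown with LIF and serum replacement. Nothing in the labels says that more than 1 line of each genotype was used, so genotype and line cannot be told apart. There is 1 array per condition and time. The other arrays at these times are titled for WNT3A, given at 50 ng/ml. They hold Wnt3+/+ cells with WNT3A alone and Wnt3-/- cells with WNT3A alone or with BMP4.

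BMP4 is a secreted ligand whose receptors are serine kinases that phosphorylate receptor SMADs, which enter the nucleus with SMAD4 and switch on target genes such as the Id family and the pathway's own inhibitors. In the mouse embryo BMP4 comes from the extraembryonic ectoderm and acts on the epiblast, where it is needed for germ cell precursors and for posterior mesoderm. Wnt3 is a secreted ligand of the beta-catenin pathway that is needed in the epiblast for the primitive streak, and it acts downstream of BMP4 there. Cells without Wnt3 therefore allow the genes that BMP4 moves without this later signal to be measured.

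Signals below are the deposited intensities. A difference is given in log2(signal + 16) units as the average of the 3 times, and its ± is the SE from a limma model of 21 arrays. These include the WNT3A arrays, which enter only the spread. The 3 times stand in for replicates, so a p-value sets a difference against how unsteady a gene was over time in 7 conditions, and the spread between separate cultures is not measured. Median signals lay between 36.8 and 41.4 over the 23 arrays. Wnt3 read 13.64 to 17.27 on KO BMP4 arrays and 11.16 to 16.91 on KO untreated arrays, and reached 146 on the WT BMP4 array at 36 h. Which stretch of Wnt3 was deleted could not be taken from the labels, and this probe set may lie outside it. The epiblast genes Pou5f1 (8780 to 9345, against 7643 to 8964) and Dnmt3b (11270 to 11990, against 9675 to 12330) were bright on both kinds of KO array. The summed signal of 6 epiblast markers was 27760 to 29860 on KO BMP4 arrays and 29020 to 31990 on KO untreated arrays. Afp, a defining gene of visceral endoderm, read 2.676 to 8.34 and 2.329 to 9.514, and the collagen gene Col1a1, which defines fibroblasts, 1.206 to 7.674 and 1 to 10.93. Some other markers of both kinds were brighter. The endoderm markers Gata4 (84.45 to 122.8 against 39.4 to 76.11) and Gata6 (38.85 to 39.67 against 34.06 to 36.76) were higher on KO BMP4 arrays without overlap. Dab2 (157.6 to 242.2 against 192.7 to 247.3) and Amn (50.21 to 200.9 against 45.57 to 117.8) overlapped, as did Sox17, Sox7 and Cubn. The summed signals of 8 endoderm markers (561.3 to 662.1 and 515.5 to 613.4) and of 8 fibroblast markers (1116 to 1458 and 1136 to 1820) overlapped between KO BMP4 and KO untreated arrays. The sum of 4 trophoblast markers did not overlap, at 195.6 to 230.2 against 124.8 to 190.3, with Cdx2 at 7.945 to 18 against 10.78 to 19.7. The Gapdh 3' to 5' ratio, a measure of RNA integrity, was 1.09 to 1.16 on KO BMP4 arrays and 1.21 to 2.68 on KO untreated arrays, with the highest value at 24 h. The same ratio of Actb was 6.59 to 7.67 and 7.84 to 8.51, and neither ratio overlapped between the groups. Their part in the differences below was not tested. In these bulk samples fewer cells of a type and less RNA per cell cannot be told apart.

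In cells without Wnt3 the genes that BMP4 changed were led by Id1, Id2 and Id4. Of 13256 genes tested, 32 rose with BMP4 (0.241%) and 42 fell (0.317%) at a limma adjusted p under 0.05, and 1414 genes had an unadjusted p under 0.05. The largest rise was that of Id1, at 5.31 ± 0.43 log2 units, and the largest fall that of Dcn, at 2.14 ± 0.34. On average over time, 21 of the 32 rising and 18 of the 42 falling genes differed by more than 1 log2 unit. All 32 and all 42 kept their direction at each of the 3 times. The 3 KO BMP4 arrays lay wholly above the 3 KO untreated arrays for 29 of the 32 and wholly below them for 38 of the 42, where 4.84% and 5.72% of all genes tested showed such a separation upward and downward. These counts use normalized values, and the deposited signals of some called genes give the other answer, among them Ckb and Phlda3 below and Avpi1, Scrn1, Mmp14 and Atp6v0a1. Without the KO untreated array at 24 h, the one with the high Gapdh ratio, 17 genes passed, 13 higher and 4 lower, of which 16 belong to the 74. Without the 3 arrays of highest Gapdh ratio 24 genes passed, and 26 without 6 other KO arrays whose labels conflict and which enter only the spread. Without the 24 h arrays none passed in limma, with 837 genes at an unadjusted p under 0.05, and without the 12 h arrays 36 passed. Other fits called more genes, 169 with array weights, 226 with a linear course for each condition and 344 with only the arrays compared. All 74 genes kept their direction in each of these fits. This says little, because each had 1 direction at all 3 times and several of the fits change only the spread.

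ID proteins bind the basic helix-loop-helix (bHLH) partners of tissue-specific transcription factors and keep them off DNA, and their genes are direct targets of BMP signalling. All 4 family members were tested, and all 4 rose. Id1 read 5557, 8192 and 10160 at 12, 24 and 36 h on KO BMP4 arrays, against 145, 177.3 and 224.4 on KO untreated arrays. Every BMP4 value was far above every untreated value, and the BMP4 values climbed with time. The differences at the 3 times were 5.08, 5.43 and 5.41 log2 units, and the mean had a limma adjusted p of 7.7e-06.

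Id2 read 1771, 3126 and 4012 on KO BMP4 arrays, against 128, 171.3 and 344.9 on KO untreated arrays. The groups did not overlap, and both climbed with time. Id2 rose by 3.74 ± 0.26 (limma adjusted p = 1.68e-06), and its other probe set by 4.19. Id4, the member best known from neural progenitors, read 168.9, 290 and 739.3 against 23.1, 32.67 and 22.47. Its BMP4 values climbed while the untreated ones stayed near the dim end of the array, and the groups did not overlap. Id4 rose by 3.03 ± 0.37 (limma adjusted p = 0.0011), with 2.31 at 12 h and 4.17 at 36 h, and its other probe set by 1.80. Id3 read 3104, 3769 and 4905 against 1541, 1734 and 1305. This member already had a bright signal without BMP4, and the groups did not overlap. It rose by 1.36 ± 0.17 (limma adjusted p = 0.00133). At 0 h the KO line read 196.7 for Id1, 160.9 for Id2, 1067 for Id3 and 26.91 for Id4.

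**Figure D1:**
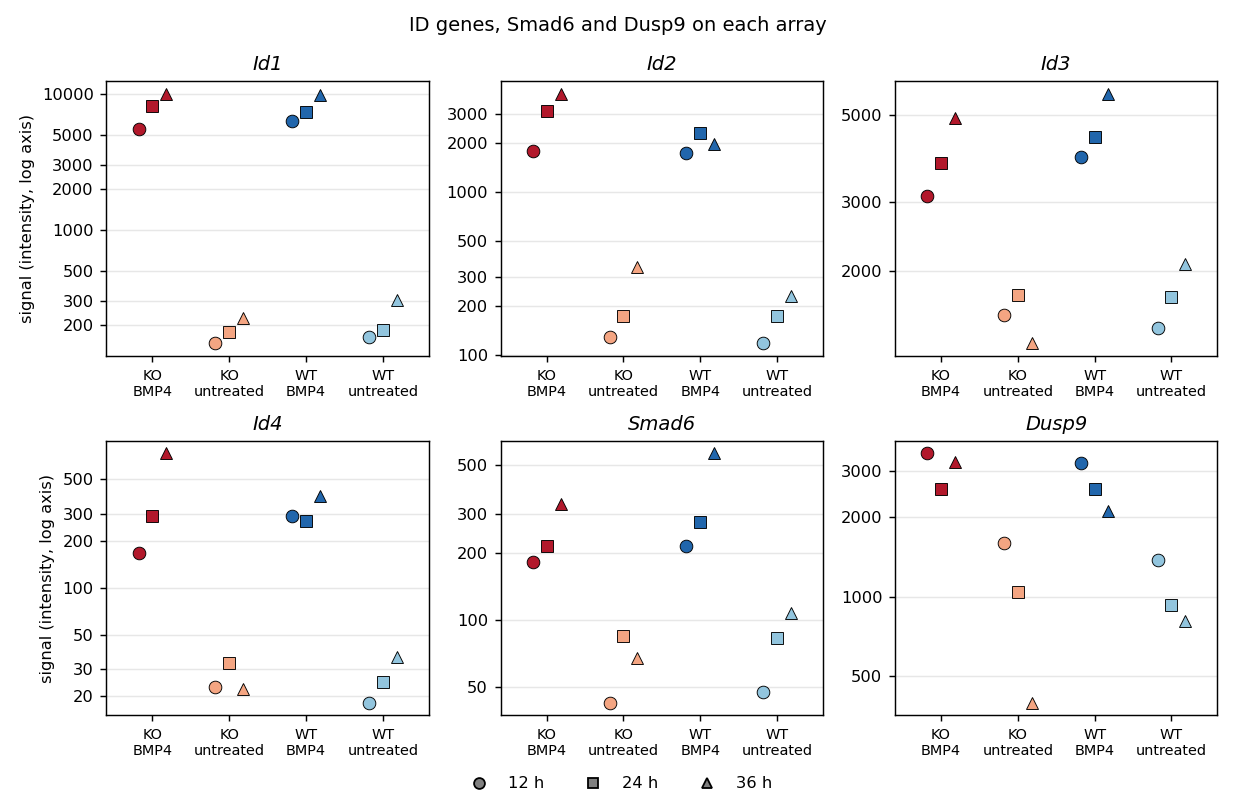
Signal (intensity, log axis) of the 4 Id genes, Smad6 and Dusp9 on each array of KO and WT cells with BMP4 and without cytokine, 1 point per time. The KO BMP4 points lie above all KO untreated points in every panel, for example 5557 to 10160 against 145 to 224.4 for Id1.

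Id1, Id2, Id3 and Id4 also rose in WT cells, by 5.14, 3.47, 1.43 and 3.02 log2 units in that order. The differences of the response, KO minus WT, were 0.16, 0.27, -0.07 and 0.01. The list median was 3.38 in KO and 3.24 in WT, beside a median of -0.01 over all genes in each. The p-value for the difference did not pass for any of the 4, which does not show that the responses are equal.

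Inhibitors that act inside the cell limit BMP signalling. Smad6, an inhibitory SMAD that is itself a BMP target, read 183.5, 216.8 and 333.1 on KO BMP4 arrays, against 42.52, 85.04 and 67.65 on KO untreated arrays. The BMP4 arrays were all higher, and the groups did not overlap. Smad6 rose by 1.61 ± 0.18 (limma adjusted p = 0.000561) and was the only one of 11 tested inhibitors of this kind to pass. Smad7, the other inhibitory SMAD, read 526.4, 617.4 and 541.2 against 229.1, 319.6 and 83.87. The groups were separate, but the untreated array at 36 h was far below the others. Its mean difference of 1.48 had a limma adjusted p of 0.178. Ppm1a, a phosphatase that acts on SMADs, was at -0.14 in KO and fell by 0.32 in WT. Bambi, a decoy receptor, read 491.1, 568.1 and 1201 against 328.6, 380 and 250.7, also without overlap. Its difference was 1.10 in KO (adjusted p = 0.107) and 1.07 in WT (adjusted p = 0.049), so that the calls differ where the sizes hardly do.

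Promoter sequence from RefSeq (GRCm38.p6) was searched on both strands for motifs of SMAD binding, and the windows of Id2, Id4 and Smad6 are shown because these BMP targets rose and hold one. The window of Id3, which also rose, holds none of the motifs searched, and Id1 was not matched. Each window is the 250 bases before the annotated start, written 5' to 3' on the gene's strand, with the matched motif in capitals. Id2 lies at chr12:25096093-25096342 on the minus strand, Id4 at chr13:48260866-48261115 on the plus strand and Smad6 at chr9:64022060-64022309 on the minus strand.
Id2: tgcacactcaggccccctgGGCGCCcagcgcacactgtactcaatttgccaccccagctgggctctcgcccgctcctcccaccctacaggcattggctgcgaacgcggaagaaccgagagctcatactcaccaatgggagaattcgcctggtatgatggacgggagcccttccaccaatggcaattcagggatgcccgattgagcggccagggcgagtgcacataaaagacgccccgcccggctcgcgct
Id4: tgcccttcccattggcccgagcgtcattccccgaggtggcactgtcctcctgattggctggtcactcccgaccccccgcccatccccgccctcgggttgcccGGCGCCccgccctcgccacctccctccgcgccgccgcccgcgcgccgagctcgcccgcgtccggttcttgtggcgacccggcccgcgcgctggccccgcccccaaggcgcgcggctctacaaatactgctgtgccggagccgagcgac
Smad6: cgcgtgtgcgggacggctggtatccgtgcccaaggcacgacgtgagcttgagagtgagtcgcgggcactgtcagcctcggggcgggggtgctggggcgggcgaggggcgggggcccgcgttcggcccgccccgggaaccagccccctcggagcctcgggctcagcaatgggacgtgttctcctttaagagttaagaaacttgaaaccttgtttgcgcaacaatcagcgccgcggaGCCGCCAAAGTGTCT

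The motif GGCGCC, which reads the same on both strands, stands in the Id2 and Id4 windows. Some genes have several promoters in the table. The motif was present in 17.2% of the promoters of genes that rose (5 of 29) and 10.2% of those of genes that fell (5 of 49), beside 16.3% of the promoters of genes tested and 9.59% of all 32851 in the table. The Smad6 window ends in a match to the longer composite element, a GC-rich SMAD1/5 site and a SMAD4 site separated by 5 bases. This element stood in 0.511% of all promoters and in 0.832% of those of genes tested. Among the called genes Smad6 and Zfp629, a gene that fell, hold it. These are 1 of 29 promoters of rising genes (3.45%) and 1 of 49 of falling genes (2.04%). The palindrome GTCTAGAC was found in 0.167% of all promoters and in none of those of called genes. Of the 32 rising and 42 falling genes, 27 and 31 had an entry in the table. A match describes these letters in this window only.

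Transcription factors that are known as BMP-SMAD targets moved less uniformly than the Id genes. Msx1, a homeobox factor of posterior mesoderm and limb, read 102.5, 149.1 and 292 on KO BMP4 arrays, against 29.45, 46.53 and 53.08 on KO untreated arrays. All 3 BMP4 arrays were higher, with no overlap. Msx1 rose by 1.58 ± 0.33 in KO (limma adjusted p = 0.0413) and by 3.88 in WT, where it read 487.8, 820.3 and 2369 with BMP4. The difference of the response, KO minus WT, was -2.30 with a 95% interval of -3.30 to -1.31, and its adjusted p was 0.144. Its other probe set gave 0.85 in KO, and the call for Msx1 in KO held in 8 of 19 alternative settings. Msx2, a close relative, read 34.3, 78.25 and 491.1 against 19.29, 23.43 and 24.08. The BMP4 arrays were higher at each time and climbed steeply at 36 h. Its mean difference of 1.74 ± 0.55 did not pass (limma adjusted p = 0.21).

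Of the 12 tested BMP-SMAD response factors 1 rose in KO and 5 in WT, with list medians of 0.58 and 1.28. Some members, Gata3 and Cdx2 among them, passed the filter through arrays outside the KO comparison where they are bright. These medians are therefore in part set by the filter. The WT calls, beside Msx1, were Msx2, Gata2, Gata3 and Tbx3, in a line where 1.44% of all genes rose and 1.98% fell. Gata2, a zinc finger factor of trophoblast and haematopoietic cells, read 70.03, 83.29 and 138.1 on KO BMP4 arrays, against 53.82, 59.71 and 44.94 on KO untreated arrays. These groups did not overlap, but the difference of 0.61 did not pass (limma adjusted p = 0.562). Gata3, a related factor of trophoblast, was dim at 13.18, 9.58 and 62.25 against 1, 1 and 6.635, and its difference was 1.03 in KO and 2.52 in WT. Its groups were apart. Tbx3, a T-box factor, read 119.4, 114.6 and 156.5 against 121.9, 143 and 126.2. Here the groups overlapped and the mean difference was -0.06 in KO, against 1.64 in WT. Hand1, a bHLH factor of extraembryonic and lateral mesoderm, read 16.8, 23.59 and 148.1 against 25.99, 27.1 and 15.24, so that only the BMP4 array at 36 h stood above the rest.

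No call was made among the pathway's ligands, receptors and secreted antagonists. None of 4 tested BMP ligand genes, 13 receptor and SMAD genes and 10 secreted antagonists and modulators passed in KO in either direction, with medians of 0.14, -0.02 and 0.06. Bmpr1a, the main type I receptor for BMP4, read 1160, 1911 and 1771 on KO BMP4 arrays, against 1121, 1370 and 1596 on KO untreated arrays. At each time the BMP4 array was slightly higher, but the groups overlapped. Bmp4 itself read 63.56, 46.85 and 63.12 against 105.4, 78.79 and 46.53, and reached 2419 on the WT BMP4 array at 36 h. No KO array came near that value.

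Dual-specificity phosphatases remove activating phosphates from MAP kinases, and 2 of 16 genes in the list of ERK phosphatases and feedback regulators rose in KO. Dusp9, which acts on ERK in the cytoplasm, read 3492, 2557 and 3236 on KO BMP4 arrays, against 1596, 1046 and 396.2 on KO untreated arrays. The BMP4 values stayed near the 0 h value of 2521, while the untreated values were lower at each later time, and the groups did not overlap. Dusp9 rose by 1.80 ± 0.23 (limma adjusted p = 0.00134), with 1.10, 1.33 and 2.96 at the 3 times. Its other probe sets gave 1.37 and 1.63. Dusp5, which acts on ERK in the nucleus, read 106.9, 145 and 292 against 64.89, 49.18 and 68.59. Its BMP4 arrays were all higher and climbed with time. It rose by 1.18 ± 0.24 (limma adjusted p = 0.0384). The other 14 genes did not pass. Among them Spry1, a feedback inhibitor of receptor tyrosine kinases, was lower without overlap (337.8, 319.6 and 340.1 against 442.6, 494.6 and 388) at -0.42 and an adjusted p of 0.165. Etv5, a target of FGF and ERK signalling, was at -0.16 in KO, and both genes fell in WT.

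Among the bHLH factors with which ID proteins interact, 1 of 11 rose and 1 fell. Ascl2, a factor of trophoblast and intestinal stem cells, read 128, 59.71 and 46.85 on KO BMP4 arrays, against 67.65, 25.28 and 14.42 on KO untreated arrays. Both courses declined, the BMP4 array was higher at each time, and the groups overlapped because of the decline. Ascl2 rose by 0.88 ± 0.19 (limma adjusted p = 0.0426), and its other probe sets gave 0.82 and 0.72. Ascl2 is one of the 4 trophoblast markers whose sum was higher on KO BMP4 arrays, while Cdx2 was not higher, Elf5 read 8.282 to 12.73 against 5.389 to 10.78, and Plet1 read 71.51 to 132.5 against 87.43 to 140.1. Ascl2 passed in 7 of 19 alternative settings. Their part in the rise was not tested. Hes6, a Hairy-related factor that favours neuronal differentiation, read 2304, 1287 and 897.6 against 2978, 2385 and 1468. It was lower with BMP4 at each time, again with overlap through a common decline, and fell by 0.67 ± 0.11 (limma adjusted p = 0.00993). Tcf12, an E protein that ID proteins bind, read 1333, 1859 and 1808 against 2077, 2336 and 2539. All BMP4 values were below all untreated ones, at -0.47 with an adjusted p of 0.071.

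Cpm, a membrane-bound carboxypeptidase, read 300.2, 439.6 and 608.9 on KO BMP4 arrays, against 94.35, 79.34 and 48.84 on KO untreated arrays. With BMP4 it climbed, without it declined, and the groups did not overlap. It rose by 2.30 ± 0.36 (limma adjusted p = 0.00654). Coch, a secreted protein of the inner ear matrix, read 168.9, 390.7 and 630.3 against 55.33, 73.52 and 58.08. Its BMP4 values climbed over untreated values that were flat. Coch rose by 2.17 ± 0.26 (limma adjusted p = 0.000998), against 1.26 in WT. Has2, a hyaluronan synthase, read 215.3, 296.1 and 354.6 against 100.4, 154.3 and 87.43, without overlap, and rose by 1.18 ± 0.24. Hapln2, a link protein that binds hyaluronan, read 101.1, 151.2 and 200.9 against 45.89, 40.5 and 43.71, and rose by 1.38 ± 0.26. For both, each BMP4 array lay above each untreated one, and the limma adjusted p was 0.0402 for Has2 and 0.023 for Hapln2.

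Parvb, which links integrins to actin, read 335.5, 477.7 and 935.8 on KO BMP4 arrays, against 91.77, 137.2 and 238.9 on KO untreated arrays. Both courses climbed, at a nearly constant distance of 1.70 to 1.80 log2 units. It rose by 1.75 ± 0.30 (limma adjusted p = 0.0121), while a second probe set of Parvb gave -0.41. Nrp2, a receptor for semaphorins and VEGF, read 31.56, 85.63 and 218.3 against 17.51, 14.83 and 20.82. The untreated values lay below the array medians. Its difference grew with time, at 0.48, 1.68 and 2.53, and a second probe set gave 0.10. Nrp2 rose by 1.56 ± 0.33 (limma adjusted p = 0.0454), which held in 7 of 18 alternative settings. Ldb2, an adaptor of LIM homeodomain factors, read 99.04, 141 and 290 against 38.85, 41.36 and 53.82, without overlap. It rose by 1.48 ± 0.20 (limma adjusted p = 0.00247), and its other probe sets gave 0.80 and 1.71. Shisa3, an endoplasmic reticulum protein that holds back FGF and WNT receptors, read 138.1, 216.8 and 198.1 against 52.35, 58.49 and 34.78. The groups were separate. It rose by 1.58 ± 0.30 in KO (limma adjusted p = 0.0269), against 0.06 in WT.

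Tdgf1, the coreceptor through which Nodal signals, was the only one of 12 Nodal pathway genes and of 10 core pluripotency genes to pass. It read 8719, 9476 and 7332 on KO BMP4 arrays, against 5518, 5221 and 1872 on KO untreated arrays. The BMP4 arrays were all higher, and the untreated array at 36 h was the lowest by far. Tdgf1 rose by 1.17 ± 0.24 (limma adjusted p = 0.0402), and the call held in 10 of 19 alternatives. In WT it read 9153, 9541 and 6562 with BMP4, against 7082, 7804 and 7913 without, a difference of 0.14. Lefty1, a Nodal antagonist, read 5518, 2210 and 1833 against 7033, 4673 and 1859 in KO, at -0.47, and fell by 1.25 in WT. Nodal itself read 1113, 1075 and 1053 against 1046, 1105 and 910.2 in KO, at 0.09. Phlda3, a p53 target that restrains AKT, was 1 of 13 p53 response genes to rise. It read 1859, 1859 and 1722 against 1541, 1287 and 849.2 and rose by 0.61 ± 0.13 (limma adjusted p = 0.0402). Its deposited signals did not overlap, whereas its normalized values did, and the call held in 7 of 19 alternatives.

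Rest, the repressor of neuronal genes, read 2385, 2759 and 1872 on KO BMP4 arrays, against 1176, 935.8 and 1090 on KO untreated arrays. It was higher at each time with no overlap and rose by 1.12 ± 0.15 (limma adjusted p = 0.00247). Like Ckb, the brain-type creatine kinase, and Rhoc, a small GTPase of cell motility, it was picked from the called genes after their values were seen. Ckb read 2369, 2740 and 4360 against 1243, 2048 and 2487 and rose by 0.73 ± 0.14 (limma adjusted p = 0.0269). Rhoc read 1361, 1380 and 1885 against 885.3, 1038 and 1113 and rose by 0.60 ± 0.09 (limma adjusted p = 0.00402). For Rest and Rhoc the groups were separate, and for Ckb they overlapped in the deposited signals and were separate after normalization.

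**Figure D2:**
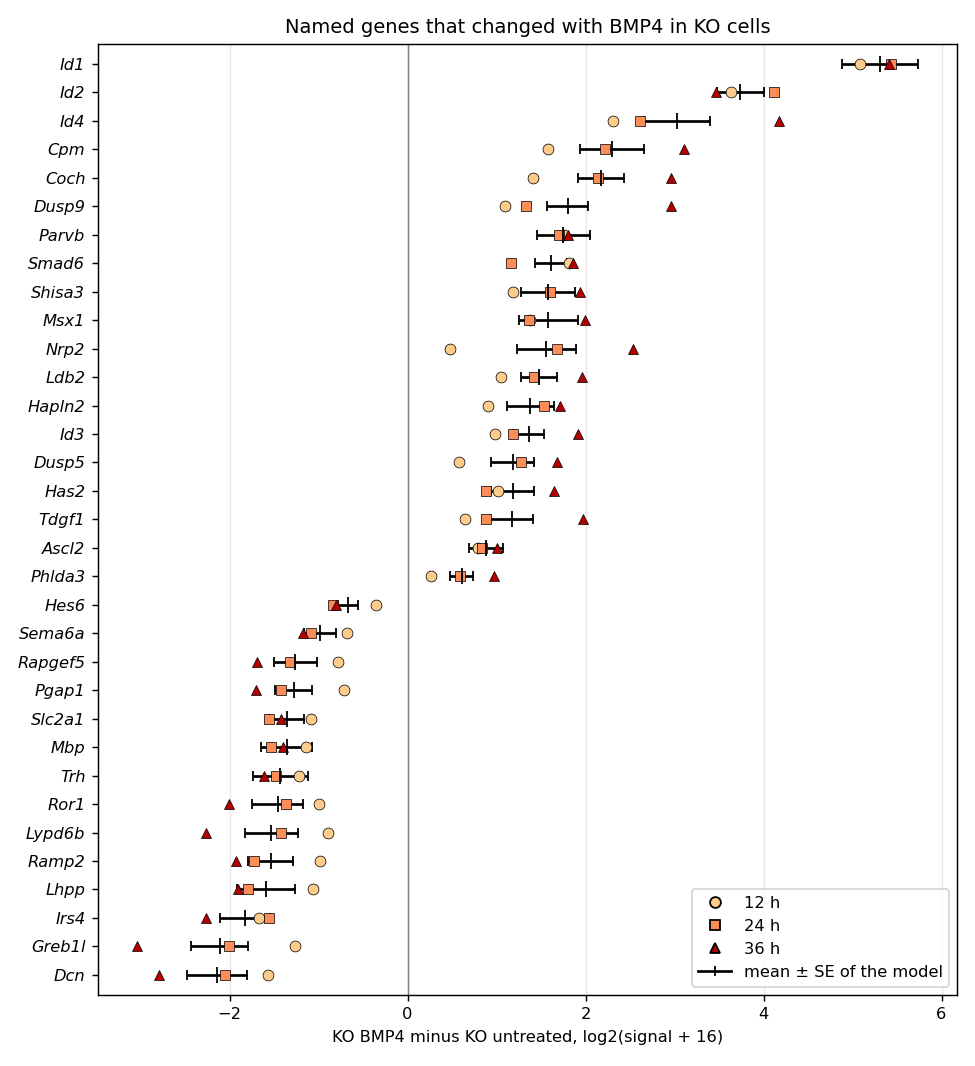
Difference between KO BMP4 and KO untreated arrays on the log2(signal + 16) scale for the named genes that passed, with 1 point for each time and a bar for the mean ± SE of the model. Points on the right of 0 are higher with BMP4. Id1 spans 5.08 to 5.43, and the points of most genes lie nearest to 0 at 12 h.

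Among the genes that fell, Dcn, which encodes the proteoglycan decorin, read 41.36, 43.41 and 32.22 on KO BMP4 arrays, against 142, 235.6 and 321.8 on KO untreated arrays. The BMP4 arrays were all lower, and the gap widened because the untreated values climbed. Dcn fell by 2.14 ± 0.34 (limma adjusted p = 0.00699) and was the only one of 12 matrix and fibroblast genes to pass in KO. At 0 h it read 354.6, so that both groups stood below the starting value. Dcn is also 1 of the 8 fibroblast markers. Of the others, Col3a1 was lower without overlap (36.76 to 56.89 against 58.89 to 72). Col1a2 (144 to 202.3 against 133.4 to 179.8), Thy1 (274.4 to 300.2 against 224.4 to 377.4) and Acta2 (588.1 to 885.3 against 548.7 to 910.2) overlapped. Col1a1 was dim, as were Lum at 5.938 to 11.79 against 2.412 to 11.63 and Postn at 1.892 to 2.479 against 1 to 3.605. Their part in the fall of Dcn was not tested. Slc2a1, the glucose transporter GLUT1, read 2998, 2721 and 3397 on KO BMP4 arrays, against 6517, 8192 and 8903 on KO untreated arrays. The BMP4 values stayed near the 0 h value of 3040, the untreated values were well above it, and the groups did not overlap. Slc2a1 fell by 1.36 ± 0.20 (limma adjusted p = 0.00402), and its other probe sets gave -1.55 and -1.57.

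Of the 25 tested genes of glycolysis and hypoxia Slc2a1 was the only one to pass, and it fell. The list median was 0.08. Of the 25, 5 were higher with BMP4 without overlap and 2 were lower. Among all genes tested 4.84% and 5.72% showed such a separation. Egln3, a hypoxia-induced oxygen sensor, was at 0.08 in KO and rose by 0.71 in WT. Ldha, lactate dehydrogenase A, read 10810, 11510 and 12250 on KO BMP4 arrays, against 10960, 10730 and 11190 on KO untreated arrays, at a difference of 0.08. Those groups overlapped. Ldhb, the other lactate dehydrogenase subunit, is no member of the list, and is given because it was among the called genes. It read 2837, 2740 and 3616 against 4871, 5442 and 5257 and fell by 0.76 ± 0.14 (limma adjusted p = 0.0176), with its 3 other probe sets between -0.84 and -0.79. Its groups did not overlap.

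Greb1l, a relative of an oestrogen-induced gene, read 113, 137.2 and 206.5 on KO BMP4 arrays, against 282.1, 621.7 and 1663 on KO untreated arrays. Both courses climbed, the untreated one much more, and the groups did not overlap. It fell by 2.11 ± 0.32 (limma adjusted p = 0.00551), against a difference of -0.27 in WT. Irs4, an insulin receptor substrate, read 76.11, 95.01 and 69.55 against 256, 321.8 and 393.4. It was lower at each time and fell by 1.83 ± 0.28 (limma adjusted p = 0.00638). Lhpp, a histidine and inorganic pyrophosphate phosphatase, read 213.8, 159.8 and 123.6 against 458.3, 608.9 and 487.8. Its groups were separate, and it fell by 1.59 ± 0.33 in KO (limma adjusted p = 0.0402) beside a difference of -0.37 in WT.

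Ramp2, a partner of the calcitonin receptor-like receptor, read 216.8, 167.7 and 191.3 on KO BMP4 arrays, against 439.6, 604.7 and 724.1 on KO untreated arrays, and fell by 1.54 ± 0.25 (limma adjusted p = 0.00741). Ror1, a receptor for noncanonical WNT ligands, read 138.1, 122.8 and 88.65 against 282.1, 352.1 and 398.9 and fell by 1.46 ± 0.29 (limma adjusted p = 0.0303). Both genes had untreated values that climbed and BMP4 values that did not, with no overlap. Trh, the precursor of thyrotropin-releasing hormone and the 1 of 12 genes in the endoderm list to pass, read 1675, 2106 and 1046 against 4012, 5955 and 3061. It had been at 315.2 at 0 h, so that it was above the start in both groups and lower with BMP4 than without. Trh fell by 1.43 ± 0.31 (limma adjusted p = 0.0454). Lypd6b, an anchored modulator of nicotinic receptors, read 187.4, 177.3 and 137.2 against 357.1, 515.6 and 685 and fell by 1.53 ± 0.30 (limma adjusted p = 0.0281), again without overlap.

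Mbp, myelin basic protein, read 174.9, 159.8 and 198.1 on KO BMP4 arrays, against 396.2, 508.5 and 512 on KO untreated arrays. Its groups were apart, and it fell by 1.36 ± 0.29 (limma adjusted p = 0.0491), whereas its other probe sets gave -0.56 and 0.71. Pgap1, which remodels glycolipid anchors, read 128, 109.1 and 99.04 against 212.3, 326.3 and 347.3 and fell by 1.28 ± 0.21 (limma adjusted p = 0.0105). Rapgef5, an exchange factor of RAP GTPases, read 382.7, 390.7 and 380 against 685, 1010 and 1152 and fell by 1.26 ± 0.24 (limma adjusted p = 0.0212). With BMP4 it was flat, and the groups did not overlap. Semaphorins, guidance cues of axons and vessels, were represented by 2 falling genes. Sema6a, the only one of 16 primed epiblast genes to pass, read 105.4, 103.3 and 86.22 against 168.9, 242.2 and 205.1 and fell by 0.98 ± 0.18 (limma adjusted p = 0.0228), with other probe sets at -0.58 and 0.28. Sema3e, picked after its values were seen, read 203.7, 229.1 and 186.1 against 344.9, 451.9 and 494.6 and fell by 1.02 ± 0.18 (limma adjusted p = 0.0146). In both the BMP4 arrays lay below all untreated ones.

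The called genes were set beside the 0 h array of the KO line, without a test because it is 1 array. For 30 of the 42 falling genes (71.4%) the mean of the KO BMP4 arrays was nearer to the 0 h value than that of the KO untreated arrays. In 35 of the 42 (83.3%) the untreated mean was above 0 h, beside 57.0% of all genes tested. The BMP4 mean was above 0 h in 10 of the 42, beside 7957 of the 13256 genes tested. Among the 32 rising genes the untreated mean was the nearer one for 25, and BMP4 was nearer for 7, beside 52.9% of all genes tested. Those 7 include Dusp9, Tdgf1 and Ascl2. Falling genes were mostly above their 0 h value in untreated aggregates and not above it with BMP4. Rising genes were mostly genes that left their 0 h value with BMP4. The genes were called by the difference between these same arrays, so both patterns are in part built in by the choice. The shares of all genes beside them are therefore no test.

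**Figure D3:**
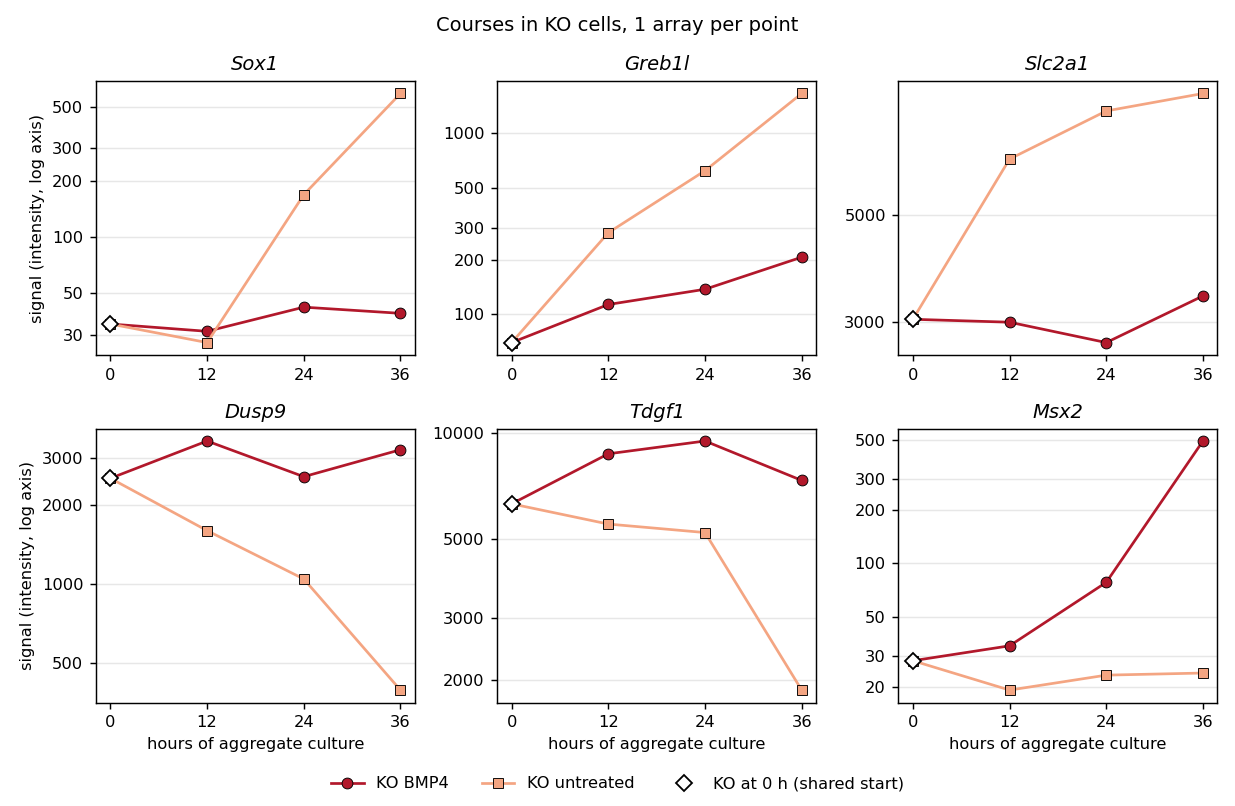
Signal (intensity, log axis) in KO cells over hours of aggregate culture, with BMP4 and untreated, from a shared 0 h array. Slc2a1 stays between 2721 and 3397 with BMP4 and is 6517 to 8903 without, Dusp9 and Tdgf1 are lower at each later time only in untreated cells, and Sox1 reaches 588.1 in untreated cells and 42.22 at most with BMP4.

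The differences were larger at the later times. Of the 32 rising genes 13, 20 and 22 exceeded 1 log2 unit at 12, 24 and 36 h, and of the 42 falling genes 9, 21 and 20. Among all genes tested 35, 115 and 115 did so upward and 27, 94 and 124 downward. The largest difference of a called gene fell at 12 h for 6, at 24 h for 27 and at 36 h for 41. In the model with a linear course for each condition, 1 gene changed its response with time, Sox1 (0.00754% of 13256, downward), with 756 genes at an unadjusted p under 0.05. The call was lost with an offset of 1, with the mean of probe sets and when the 3 arrays highest in Gapdh ratio were left out.

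Sox1, an early marker of neural ectoderm, read 31.34, 42.22 and 39.12 on KO BMP4 arrays, against 27.28, 168.9 and 588.1 on KO untreated arrays. The groups were alike at 12 h and far apart at 36 h, because only the untreated course climbed. The slope of the difference was -1.76 ± 0.18 log2 units per 12 h (limma adjusted p = 0.00785), with differences of 0.08, -1.66 and -3.44. In WT the differences were -0.74, -1.71 and -3.33. Over the mean of the times Sox1 did not pass in KO (-1.67, limma adjusted p = 0.163). The next slope belonged to Msx2, at 1.51 ± 0.22 with an adjusted p of 0.11. Other slopes among the 5 smallest p-values on each side, which did not pass, were 1.14 for Olig1, 1.02 for Nrp2, 0.93 for Dusp9, 0.41 for Hspa4, -1.23 for Zeb2, -0.88 for Greb1l, -0.82 for Trat1 and -0.76 for Mcf2.

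Of 14 neural ectoderm genes none passed in KO over the mean of the times, and 4 fell in WT: Sox1, Sox3, Zic5 and Tubb3. Sox3, a neural and epiblast SOX factor, read 1218, 560.3 and 401.7 on KO BMP4 arrays, against 1541, 1574 and 1046 on KO untreated arrays. It was lower at each time but overlapped, and the difference of -1.08 had a limma adjusted p of 0.155. Zic5, a zinc finger factor, read 1323, 1418 and 1121 on KO BMP4 arrays, against 1226, 1252 and 1771 on KO untreated arrays, with overlap and a difference of -0.13. Pax6, a factor of the neural tube and eye, read 101.8, 153.3 and 219.8 against 73.01, 167.7 and 235.6. Both courses climbed together, at a difference of 0.02. Tubb3, a neuronal tubulin, was at -0.56 in KO and -2.75 in WT, and the difference of the 2 responses was 2.20. That difference did not pass the test over all genes.

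No primitive streak gene was called in KO cells. Of 15 streak and nascent mesoderm genes none passed, with a list median of 0.00 in KO against 1.07 in WT. Some members entered the test only through arrays outside the KO comparison where they are bright, so these medians are in part set by the filter. Evx1, a homeobox factor of the posterior streak, read 18.64, 19.29 and 15.89 on KO BMP4 arrays, against 17.88, 16.68 and 18.51 on KO untreated arrays. All 6 values were dim and overlapped, while WT BMP4 arrays read 685, 1499 and 4040. The KO values lay below the array medians, so Evx1 was tested only through other arrays where it is bright, and the adjusted p for the difference of the response was 0.0756 in limma. Mixl1, a homeobox gene of mesendoderm, read 8.938, 12.13 and 13.09 against 16, 13.74 and 9.448 in KO, and 27.47, 359.5 and 1992 in WT with BMP4. Its KO values too lay below the array medians, and it was likewise tested only through other arrays. Mesp1, a bHLH factor of nascent mesoderm, read 64.89, 65.34 and 42.81 against 77.17, 53.82 and 47.5. In both the KO groups overlapped.

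Of 16 targets of WNT and beta-catenin none passed in KO, and Sp8 and Fzd10 rose in WT, with medians of 0.04 and 0.66. Sp8, a zinc finger factor of the tail bud, read 11.31, 26.35 and 72.5 on KO BMP4 arrays, against 7.013, 17.51 and 17.88 on KO untreated arrays, at 0.63. Sp5, a direct beta-catenin target, read 31.12, 20.11 and 15.89 on KO BMP4 arrays, against 27.28, 25.99 and 24.76 on KO untreated arrays. The WT BMP4 arrays read 1024, 1924 and 2385. These KO values of Sp5 lay below the array medians, so Sp5 was tested only through other arrays, and the list medians carry that limit. Axin2, a feedback inhibitor of the pathway, read 43.11, 31.34 and 40.79 against 43.41, 88.03 and 55.72 in KO. Its BMP4 values lay just below all untreated ones, at -0.53 with a limma adjusted p of 0.785. Rnf43, a ligase that removes WNT receptors, read 29.45, 42.52 and 54.57 against 24.08, 16.91 and 20.97. It was higher without overlap at 0.61, and missed the threshold at an adjusted p of 0.0545.

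Few genes of the epiblast state passed in KO cells. Of 16 primed epiblast genes Sema6a alone fell in KO and 6 fell in WT, with medians of -0.08 and -0.94. Pou3f1, a POU factor of the epiblast and early neural plate, read 4040, 2817 and 2091 on KO BMP4 arrays, against 4608, 4240 and 3641 on KO untreated arrays. The values were lower with BMP4 at each time and overlapped, at -0.51 with a limma adjusted p of 0.654, beside -2.86 in WT. Fgf5, a growth factor of the epiblast, read 648.1, 714.1 and 292 against 1144, 1585 and 2020. Its groups were separate, but the difference of -1.58 did not pass (adjusted p = 0.205). Foxd3, which maintains pluripotent epiblast, read 545, 407.3 and 458.3 against 481, 634.7 and 357.1, at -0.06 in KO and -2.07 in WT. Dnmt3a, a de novo DNA methyltransferase, was at -0.09 in KO and -0.87 in WT, and Fgf15, a growth factor of the early neural plate, at -0.12 and -2.03. Sox2 read 3743, 4705 and 3956 against 2557, 4096 and 5442, and Nanog 1201, 1783 and 1510 against 1067, 1168 and 2006. Both overlapped, at 0.10 and 0.13.

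None of 13 naive pluripotency genes passed in KO. Klf2, a Krüppel-like factor of naive cells, read 64.89, 23.75 and 28.05 on KO BMP4 arrays, against 186.1, 178.5 and 97.01 on KO untreated arrays. It was lower without overlap at -1.69, with a limma adjusted p of 0.0553. Among determinants of the germline and other early germ cell genes none of 12 passed either. Prdm1, which encodes Blimp1, read 55.72, 64.89 and 37.53 against 64.45, 61.82 and 58.08, at -0.24 in KO and 0.99 in WT. Prdm14 read 5.098, 4.691 and 6.063 against 8.634, 9.318 and 7.945, all near the dim end of the array and lower with BMP4 without overlap. These values lay below the array medians, so Prdm14 was tested only through other arrays. Tfap2c read 62.25, 58.89 and 155.4 against 65.34, 89.88 and 95.01, and was at -0.05. These are the 3 factors best known to specify germ cells. None was higher with BMP4 on average in KO cells, though Tfap2c was higher at 36 h. Values as dim as those of Prdm14 cannot show whether it responds. Kit, a receptor of migrating germ cells, read 263.2, 296.1 and 308.7 against 474.4, 776 and 996. Its BMP4 values were all lower, at -1.29 and an adjusted p of 0.0752. Elavl2, an RNA-binding protein, was at -0.71 (adjusted p = 0.0959) in KO and fell in WT, and Tdrd5, a Tudor protein of germ cells, was at -0.18 in KO and rose by 1.34 in WT.

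Lists of later lineages and housekeeping programmes had medians near 0 in KO. None of 14 lateral and extraembryonic mesoderm genes and of 15 surface ectoderm genes passed, and of 11 amnion and trophoblast genes Ascl2 alone. The medians were 0.15, -0.03 and -0.03. Cdx2, of the amnion and trophoblast list, lay below the array medians on all KO BMP4 and KO untreated arrays. It was tested only through other arrays, so that list's median is in part set by the filter. Gata4, a factor of endoderm and heart mesoderm, read 84.45, 122.8 and 97.01 against 39.4, 61.82 and 76.11 and was higher without overlap, at 0.60 in KO (limma adjusted p = 0.569) and 1.25 in WT. Cdh1, E-cadherin, read 6123, 6794 and 6295 against 7591, 7968 and 7486, lower without overlap at -0.24 (adjusted p = 0.175). Krt8, a keratin of simple epithelia, read 1017, 1361 and 2539 on KO BMP4 arrays, against 942.3, 1629 and 2320 on KO untreated arrays, with overlap and a difference of 0.01. Cell cycle genes (16), immediate early genes (13), amino acid stress genes (15) and cholesterol synthesis genes (12) had no call in KO, with medians of -0.04, 0.13, 0.04 and -0.01. Pcna, a replication clamp, read 9541, 10730 and 10300 against 9947, 9947 and 11190, at 0.00. Myc, a growth regulator, read 415.9, 294.1 and 276.3 against 221.3, 158.7 and 151.2, higher without overlap at 0.79 and a limma adjusted p of 0.0895. Mthfd2, a mitochondrial folate enzyme, and Sqle, squalene epoxidase, were at -0.03 and -0.14. Perp, a p53 target of cell junctions, was at 0.56 in KO and rose by 0.83 in WT. The p53 list had a median of 0.36, and 6 of its 13 genes were higher without overlap, beside 4.84% of all genes tested, so that its median stood further from 0 than the others of this paragraph.

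**Figure D4:**
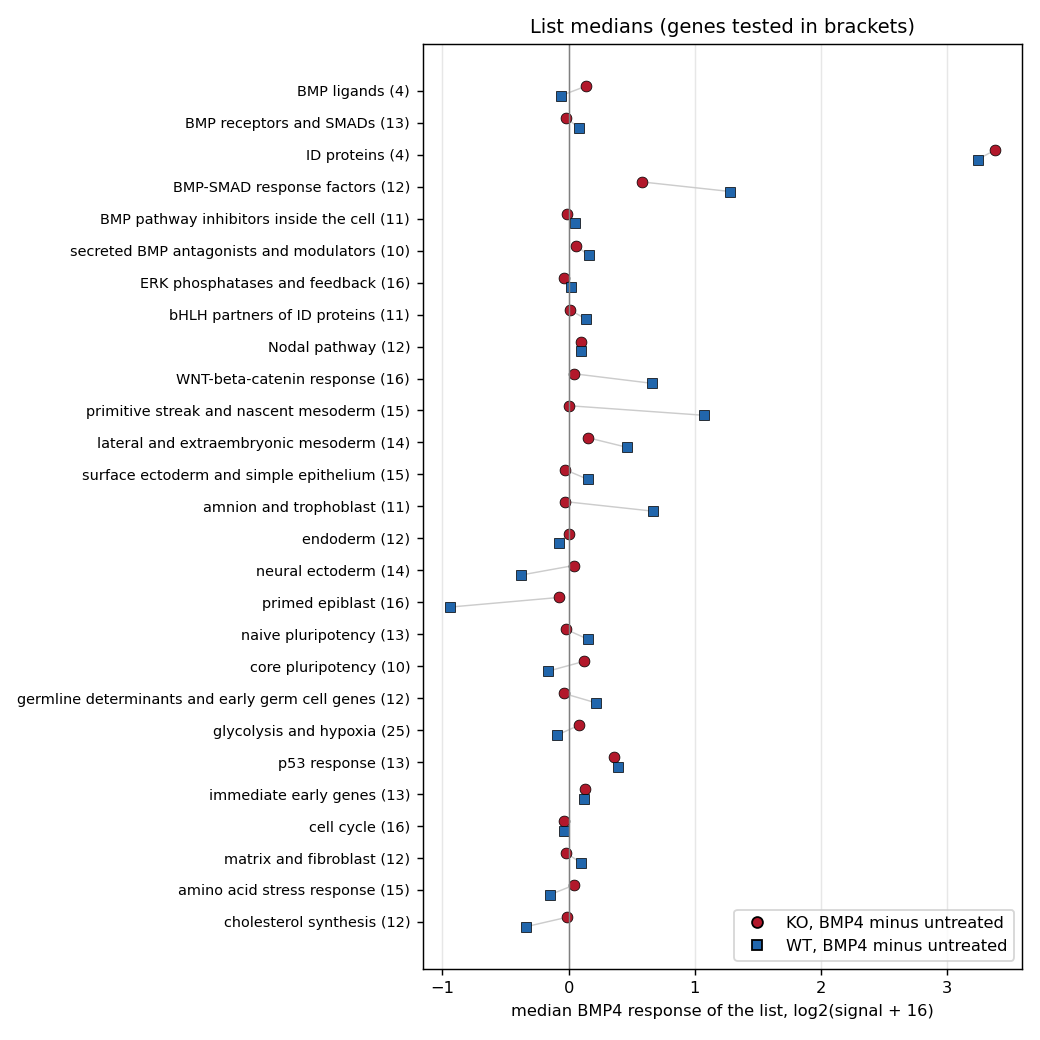
Median difference with BMP4, on the log2(signal + 16) scale, of the genes tested in each of 27 lists, in KO (circles) and in WT (squares), with the number of genes in brackets. The ID proteins stand far to the right in both lines (3.38 and 3.24), and streak genes lie at 0.00 in KO and 1.07 in WT. Some streak genes, and members of other lists such as Cdx2 and Sp5, were tested only through arrays outside the KO comparison where they are bright.

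The KO response was then set against the WT response, with which it shares no array. Both come from 1 fit with 1 estimate of spread per gene. A gene of small spread is favoured to pass in both, so shared calls are not independent. Of the 32 genes that rose in KO 22 also rose in WT, which is 68.8% of the KO set and 11.5% of the 191 rising in WT. Of the 42 that fell 27 also fell in WT, which is 64.3% of the KO set and 10.3% of the 262 falling in WT. Of all genes tested 1.44% rose and 1.98% fell in WT. No gene was called in opposite directions, and the mean in WT had the direction of KO for 31 of 32 and 41 of 42. How many of all genes tested had means of 1 direction in both lines was not counted. The other 25 genes did not pass in WT, where Shisa3 (0.06), Tdgf1 (0.14), Depdc7 (-0.07), Greb1l (-0.27), Lhpp (-0.37) and Pdlim3 (0.08) had means near 0.

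**Figure D5:**
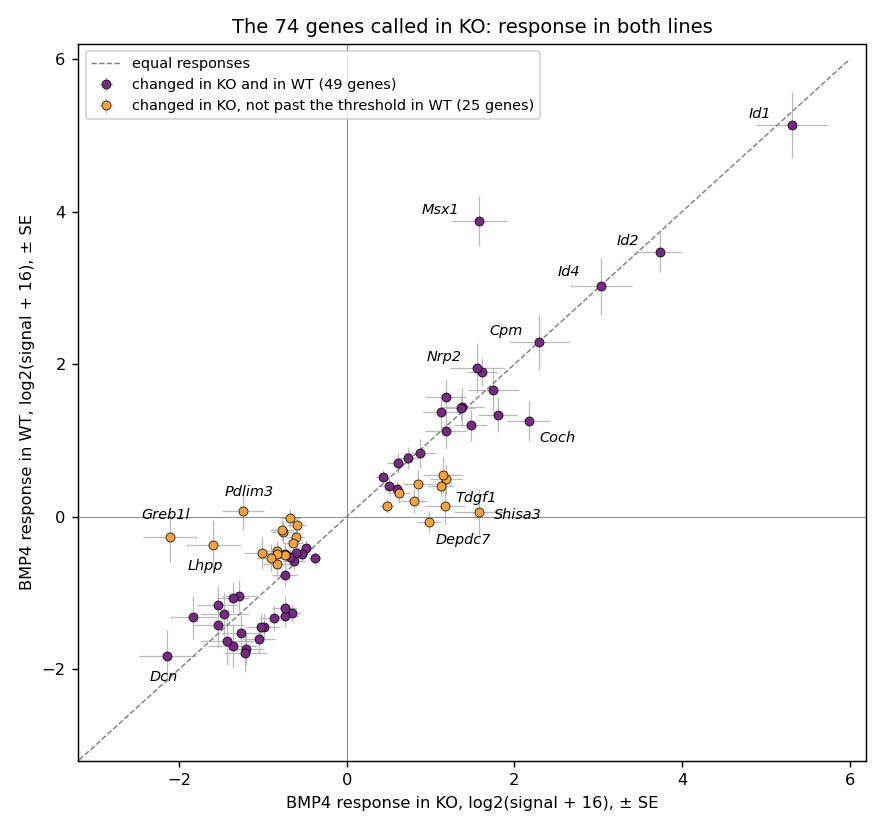
Difference with BMP4 in KO (x) and in WT (y) on the log2(signal + 16) scale, ± SE of the model, for the 74 genes called in KO, with a dashed line of equal responses. Most points follow the line, Msx1 lies above it at 1.58 in KO and 3.88 in WT, and Greb1l and Pdlim3 fell in KO with WT values near 0.

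When the difference of the response itself was tested, no gene passed in limma, with the smallest adjusted p at 0.0516 and 781 genes at an unadjusted p under 0.05. Of the 74 genes called in KO 19 had an unadjusted p under 0.05 for this difference, beside those 781 of the 13256 genes tested. The 74 were chosen by their KO response, which is part of the same difference, so the 19 do not show that the lines differ. Other settings called 0 to 3 genes, 12 with array weights, 29 without the 36 h arrays and 73 with linear courses, so whether a response differs between the lines depends on the setting. With linear courses all 10 genes named for this difference passed, and Enpp3 passed in 7 settings in all. Enpp3, a nucleotide-hydrolysing ectoenzyme, read 1351, 1479 and 1924 on KO BMP4 arrays, against 1872, 2628 and 2702 on KO untreated arrays. It read 207.9, 144 and 59.3 on WT BMP4 arrays and 1574, 2006 and 1585 on WT untreated arrays. Its groups were apart in WT and overlapped in KO, and the difference of the response, KO minus WT, was 3.01 (95% interval 1.98 to 4.03, limma adjusted p = 0.0516). Wls, the carrier that brings WNT ligands to the cell surface, read 385.3, 903.9 and 1351 against 232.3, 604.7 and 1003 in KO and 754.8, 1652 and 3875 against 170.1, 530.1 and 1113 in WT. It was higher with BMP4 at each time in both lines, by less in KO, and the difference of the response was -1.29 (95% interval -1.73 to -0.85, adjusted p = 0.0516). Depdc7 rose by 0.98 ± 0.14 in KO, and its difference was 1.05 (0.64 to 1.45, adjusted p = 0.0794). The zinc transporter gene Slc39a14 had a difference of 1.16 (0.74 to 1.58), Prr18 of 1.78 (1.12 to 2.43) and Tmem185a of -1.72 (-2.37 to -1.07), with adjusted p-values of 0.074, 0.074 and 0.0756.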

How the data were processed

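Affymetrix Mouse Genome 430 2.0 arrays were measured, 23 in all. The deposited values are linear intensity values, 1 per probe set and array, and 2.93% of them equal the lowest value, 1. Per the labels' protocols, cDNA was amplified before biotin labelling of cRNA. For the summary of probes a method was not given in the sources used here. The annotation gives 1 gene for 34958 of 45101 probe sets, several for 932 and no gene for 9211. Only those with 1 gene were used, and 34754 were matched to the RefSeq table. Because the upper quartiles of the arrays spread over 0.37 log2 (medians 0.17), log2(value + 16) was quantile normalized. This scale understates changes of dim genes. A gene was represented by its probe set of highest mean, and 13256 of 18194 genes exceeded the array median on at least 3 arrays and were tested. There are no detection calls, and precision is limited by how many arrays there are.

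Groups follow the titles. limma 3.58.1 under R 4.3.3 fitted 21 arrays as 7 conditions plus an additive time block (12 residual degrees of freedom), with a variance trend along the mean signal. A second model added a linear course per condition (6 residual degrees of freedom). Benjamini-Hochberg adjusted p under 0.05 over all genes tested was the threshold. For 6 KO arrays with WNT3A in their title, the array name gives other cytokines. They enter only the estimate of spread.

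The members, the 27 gene lists and the rule for named genes were chosen with earlier results of these data known. Named are the given markers, the 15 rising and 12 falling genes of largest difference that passed, list members that passed, bright members of lists without a call, and the 5 smallest p on each side for the difference and the slope. Other members named as examples or contrasts were picked after their values were seen. Of 379 list genes 320 were tested, 24 had no probe set of their own and 35 were too dim. Scripts were tested on simulated data. Alternatives were other normalizations, offsets, filters, probe set rules, variance models, sets of arrays and each time left out. Fits without the KO untreated array at 24 h were added after the data were seen. Figures were drawn with matplotlib 3.10.9.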

Additional observations from a re-analysis of the deposited data

Results flagged for a closer look

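For 4 genes among those named or listed every KO array pair differed one way with BMP4 and every WT pair the other way. The tests of these differences did not pass the limma threshold. Gpc4, Pdgfrl and Macroh2a1 had been named for their small p-values for this same difference. Opposite directions are thus in part built in by the choice. How many of all genes tested show this pattern was not counted. Gpc4, a glypican that binds growth factors on the cell surface, was higher in KO with BMP4 (714.1, 996 and 1038, against 584.1, 699.4 and 685) and lower in WT (442.6, 522.8 and 487.8, against 714.1, 657.1 and 849.2). The difference of the response, KO minus WT, was 1.02 (95% interval 0.67 to 1.36, adjusted p = 0.0516). Pdgfrl, a secreted receptor-like protein, was lower in KO and higher in WT, with a difference of -1.54 (-2.15 to -0.92, adjusted p = 0.0889). Macroh2a1, a histone variant gene, was likewise lower in KO and higher in WT at -1.19 (-1.68 to -0.71, adjusted p = 0.094). Fzd10, a WNT receptor gene, was at -0.96 (-1.38 to -0.54, adjusted p = 0.148).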

How the results depend on the processing

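The count of genes called for BMP4 in KO, 74, was 169 with array weights, 344 in a fit of only the arrays compared, 26 without the 6 KO arrays of conflicting labels, 24 without the 3 arrays of highest Gapdh ratio, 226 with linear courses, 39 with an added 2-fold limit and 17 without the KO untreated array at 24 h. It ranged from 0 to 86 when a time was left out. The WT count, 453, was 118 with only the arrays compared, 234 without the 6 arrays, 253 without the 3 arrays, 941 with linear courses and 164 with the 2-fold limit, and 12 to 369 when a time was left out. The count for the difference, 0, was 2 for values as deposited, 2 with median centring, 3 with an offset of 64, 3 with a filter at the 60th percentile, 12 with array weights, 3 without the 3 arrays, 73 with linear courses and 0 to 29 when a time was left out. Sox1 did not pass for the slope (0 genes) with an offset of 1, the mean of probe sets or without the 3 arrays. No result reversed. All 74 genes kept their direction wherever they were fitted, and Id1, Id2, Id3, Id4, Smad6 and Dusp9 passed in 18 of 19 alternatives, all but the one without the 24 h arrays. The fewest were 7 for Ascl2, Nrp2 and Phlda3, 8 for Mbp and Msx1, 9 for Has2, 10 for Sema6a and Tdgf1 and 11 for Lhpp and Trh. Fewer arrays leave fewer degrees of freedom, and further causes were not tested. Exchanging the labels of the 6 arrays cannot change the KO fit and is not counted. Of 52 further probe sets of 33 called genes 43 had the gene's direction and 8 the opposite one. Arrays are paired by time, which is a block in the model, and the fit of only the arrays compared uses that pairing alone. The labels number no replicates within a time, so no further pairing was possible.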
